A study of Mus musculus with 6 samples.

Results

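The genes described here are 33 genes that T cells and natural killer (NK) cells are known for, taken as a given list and looked up by symbol among the 20687 gene symbols of the deposited table. All 33 were present, and all 33 passed the expression filter and were tested. They comprise 6 parts of the antigen receptor, 3 coreceptors, 5 signalling proteins, 3 accessory surface proteins, 3 genes of regulatory T cells, 5 transcription factors, 5 granule genes and 3 NK receptors. RNA was sequenced from 3 samples of KP lung (Lung_KP) and 3 samples of the KP cell line (CellLine_KP), both given as strain C57BL/6. Per the labels, a lung sample was pooled from 3 mice given 100000 KP cells by tail vein and was taken on day 28, and the 3 lung samples came from independent experiments. Lungs were digested with collagenase. KP is a mouse tumour cell line whose genotype the labels do not give, and its preparations are called triplicates, which need not mean separate cultures. The spread in that group, and so the p-values, may therefore be technical. No lung without tumour cells was analysed here, so genes of normal lung and genes of a response to the tumour cannot be told apart.

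T cells read peptides on other cells with a receptor made of paired variable chains and the CD3 and zeta chains, and the coreceptors CD4 or CD8 bring the kinase Lck to it. Lck and Zap70 then phosphorylate the scaffold Lat, from which the signal branches. NK cells carry no rearranged receptor and use germline-encoded receptors, but they share granzymes and perforin with cytotoxic T cells. Lung holds resident and circulating cells of both kinds, whereas a tumour line grown in culture is not a source known for CD3 chains or granzymes.

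Sequences are shown first for the genes whose values depend on how reads are told apart. The constant regions of the beta chain, Trbc1 and Trbc2, lie on mouse chromosome 6 and are near copies of each other. Over 518 coding bases they differed at 23 (95.56% identical), with 1 difference in the first 378 bases and 22 in the last 140. Bases 379 to 518 of the GENCODE M21 transcripts are given here 5′ to 3′, with differing bases in capitals.
Trbc1: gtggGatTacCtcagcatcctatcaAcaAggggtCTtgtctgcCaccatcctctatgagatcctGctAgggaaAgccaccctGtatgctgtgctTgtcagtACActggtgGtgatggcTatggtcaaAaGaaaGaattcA
Trbc2: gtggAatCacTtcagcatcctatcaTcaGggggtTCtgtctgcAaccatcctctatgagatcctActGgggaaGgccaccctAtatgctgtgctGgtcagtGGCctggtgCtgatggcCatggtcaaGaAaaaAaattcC
Reads from the shared stretch are divided between the copies by the quantification.

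Windows around transcript starts (RefSeq, GRCm38.p6, 250 bases before to 50 after the start) were found for 24 of the 33 genes, 34 windows in all, and not for Trbc1, Trbc2, Cd4, Cd8b1, Skap1, Cd2, Cd6, Ikzf2 and Klrd1. Those printed belong to Lck, which has a distal and a proximal start 15269 bases apart, to Cd3d as a receptor gene, and to Tcf7 and Eomes, whose levels stood apart below. Capitals mark CpG pairs.
Lck distal start (chr4:129573592-129573891, minus strand): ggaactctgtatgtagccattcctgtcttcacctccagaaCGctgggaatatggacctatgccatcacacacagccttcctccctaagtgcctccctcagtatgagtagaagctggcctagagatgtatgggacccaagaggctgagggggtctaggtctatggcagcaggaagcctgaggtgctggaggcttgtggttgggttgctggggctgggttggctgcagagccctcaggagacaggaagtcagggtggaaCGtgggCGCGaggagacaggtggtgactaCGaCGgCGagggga
Lck proximal start (chr4:129558323-129558622, minus strand): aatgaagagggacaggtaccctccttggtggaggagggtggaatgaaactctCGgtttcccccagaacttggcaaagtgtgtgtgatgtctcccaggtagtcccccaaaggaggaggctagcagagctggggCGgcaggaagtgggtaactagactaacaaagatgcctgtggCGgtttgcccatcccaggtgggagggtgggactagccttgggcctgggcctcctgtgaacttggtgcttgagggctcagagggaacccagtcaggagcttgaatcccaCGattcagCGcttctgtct
Cd3d (chr9:44981536-44981835, plus strand): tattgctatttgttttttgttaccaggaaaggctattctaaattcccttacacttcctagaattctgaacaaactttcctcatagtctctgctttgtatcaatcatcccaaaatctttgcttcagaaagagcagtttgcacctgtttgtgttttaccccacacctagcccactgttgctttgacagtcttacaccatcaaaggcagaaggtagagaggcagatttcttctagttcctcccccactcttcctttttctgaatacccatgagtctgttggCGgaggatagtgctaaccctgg
Tcf7 (chr11:52282546-52282845, minus strand): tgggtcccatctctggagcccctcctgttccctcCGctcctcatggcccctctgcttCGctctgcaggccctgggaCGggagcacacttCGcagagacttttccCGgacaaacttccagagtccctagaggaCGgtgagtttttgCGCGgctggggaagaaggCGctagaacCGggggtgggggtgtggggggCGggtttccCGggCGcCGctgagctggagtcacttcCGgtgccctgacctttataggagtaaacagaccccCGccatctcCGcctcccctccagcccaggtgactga
Eomes (chr9:118477939-118478238, plus strand): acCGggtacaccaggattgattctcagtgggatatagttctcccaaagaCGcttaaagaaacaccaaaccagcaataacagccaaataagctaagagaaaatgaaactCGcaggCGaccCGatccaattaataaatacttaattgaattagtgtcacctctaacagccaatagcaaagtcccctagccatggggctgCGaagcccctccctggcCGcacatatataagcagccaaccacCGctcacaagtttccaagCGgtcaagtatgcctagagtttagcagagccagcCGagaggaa
The Cd3d window held 1 CpG, the Lck windows 7 and 5, the Eomes window 10 and the printed Tcf7 window 17. The latter is that of the downstream Tcf7 start, and the window of the upstream start, not printed, held 45. Per gene, the 5 transcription factor genes averaged 9 to 31 CpG a window, against a median of 3 and a range of 0 to 10 for the other 19 genes with a window. CpG content, as observed over expected, ran against the log2 fold change between lung and cell line with a Spearman rho of -0.35 over 24 genes and -0.0386 over the 19 without transcription factors. Genes are not independent replicates.

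Among motifs, the RUNX core TGTGGT was in 29.4% of the 34 windows and in 16.8% of all 32851 windows of the same length, counting both strands. The ETS core CAGGAA was in 47.1% against 30.6%, the TCF/LEF core CTTTGA in 17.6% against 16.0%, the GATA letters AGATAA in 8.82% against 11.2%, and the T-box letters GGTGTGA in 5.88% against 3.98%. Of 49 matches, 2 overlapped a match of another motif. Some windows of the same gene overlap, such as the 2 of Ncr1, which both held the RUNX letters. A site can therefore be counted more than once in these shares. The distal Lck window held the RUNX and ETS letters, the proximal Lck window the ETS letters, and the Cd3d window the ETS and TCF/LEF letters. Matching letters are a description and not a bound site.

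Estimated counts per sample came to between 17786758 and 22862396, and CPM below are counts over TMM-corrected library sizes. The floor of 3 counts, which a count of 0 still allows, equalled 0.120 to 0.173 CPM. Libraries were not equally alike. Log2 CPM over all tested genes correlated at 0.98 for lung replicates 1 and 3, but at 0.936 and 0.908 for pairs with lung replicate 2. The correlation was 0.991 for cell line replicates 2 and 3, but 0.965 and 0.964 for pairs with cell line replicate 1. Lung replicate 2 and cell line replicate 1 therefore stood apart, and the counts below were repeated without both. The lung samples carried the markers of lung epithelium, and the epithelial markers listed for the cell line did not set it apart as a group. Sftpc, the surfactant gene of alveolar type 2 cells, had 8370, 16002 and 9544 CPM in lung, against 0.0467, 0 and 0.0527 CPM in the cell line. Krt18, a keratin of simple epithelia, had 604, 1018 and 466 CPM in lung, against 1181, 2595 and 2622 CPM in the cell line, and was the only 1 of 5 such markers that was lower in lung. Krt8, Krt19 and Cdh1 did not pass (adjusted p = 0.115, 0.614 and 0.704, edgeR), with overlapping groups. Epcam was higher in lung, with 49.9, 46.7 and 59.3 CPM in lung, against 1.92, 2.59 and 3.00 CPM in the cell line.

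Of the 33 T and NK genes, 32 were higher in lung than in the cell line and 1, Eomes, did not pass the test (edgeR, adjusted p below 0.05 over 15212 genes). Over all genes tested, 31.3% were higher in lung and 17.5% were lower. In the same 32 genes every lung sample lay above every cell line sample, which held for 35.6% of all genes tested. The median log2 fold change, lung minus cell line and also called the log2 difference below, was 3.73 over the 33 and 0.08 over all genes. Without lung replicate 2 and cell line replicate 1 the count was again 32. In bulk RNA, fewer cells of a type and less RNA per cell cannot be told apart. At 1 CPM or more in every sample there were 32 genes in lung and 11 in the cell line.

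**Figure D1:**
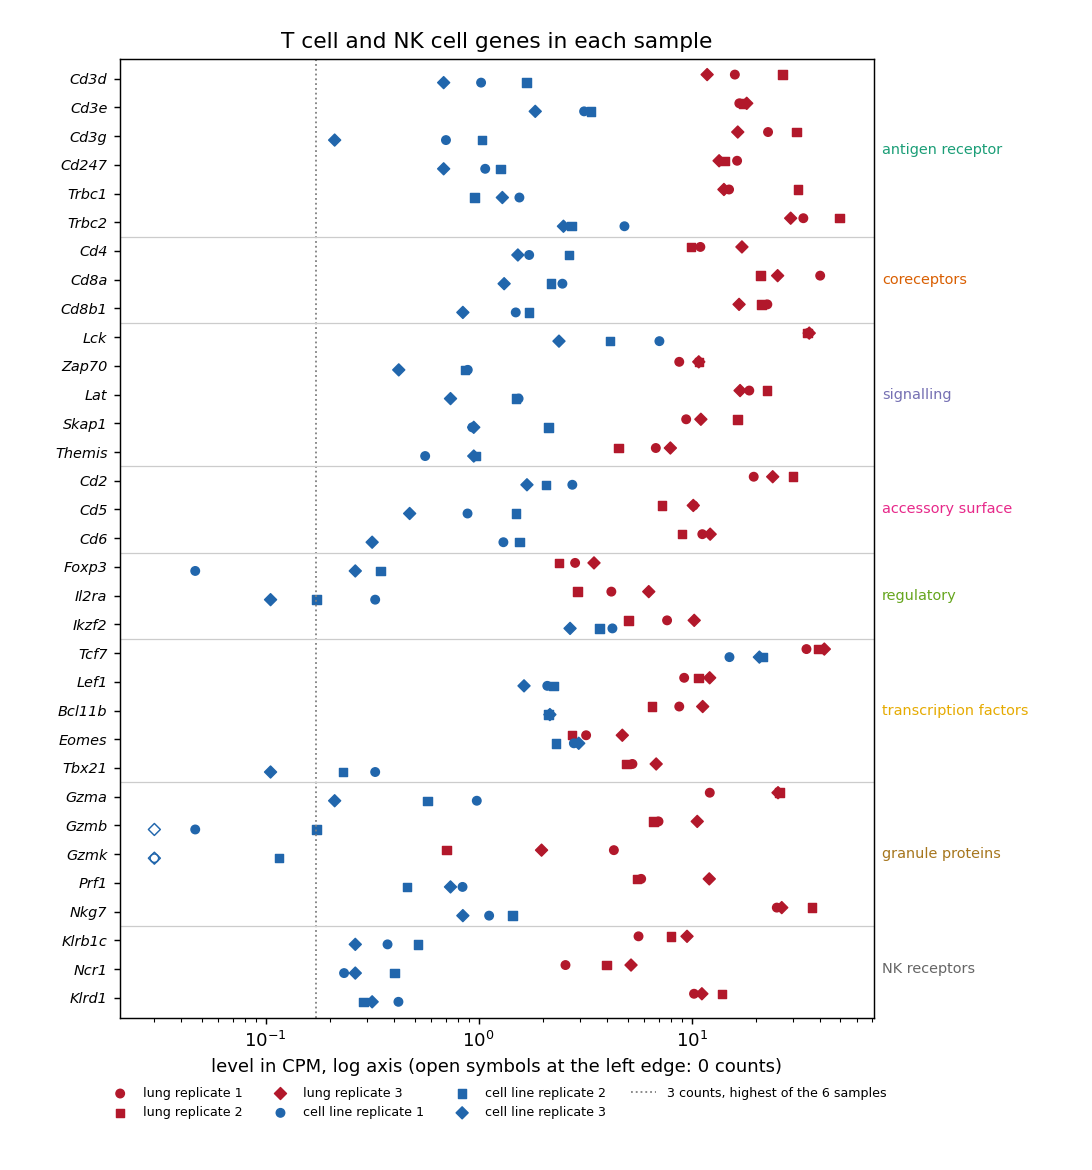
Level of each of the 33 genes in each sample (CPM, log axis), with lung samples in red and cell line samples in blue, symbols by replicate, and open symbols for 0 counts. Eomes is the gene whose groups overlap, and Gzmk in lung has the widest spread, 4.31, 0.708 and 1.97 CPM.

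**Figure D2:**
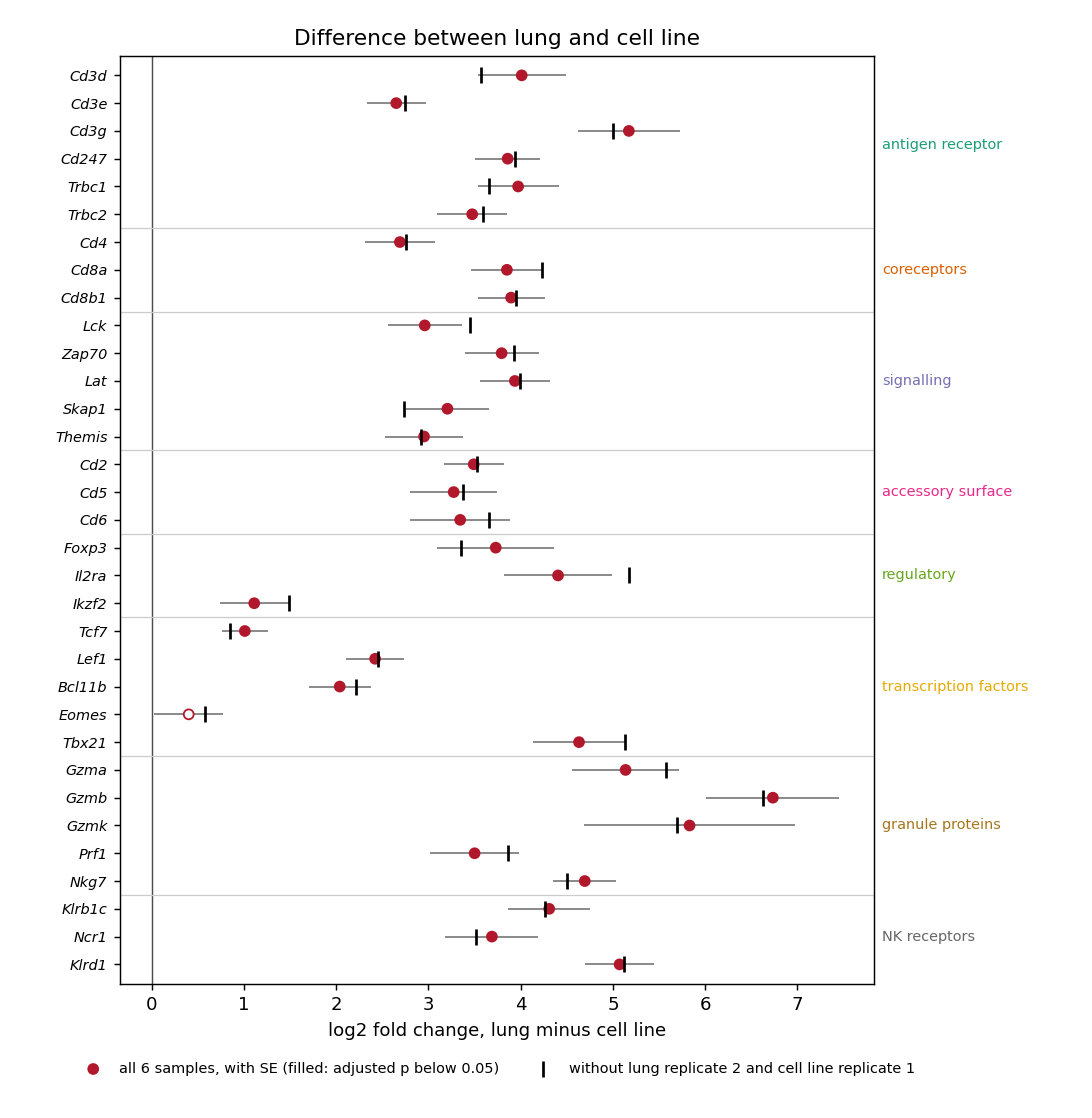
Log2 fold change of each gene, lung minus cell line, with its standard error (horizontal bars), filled where the adjusted p was below 0.05, and the value without lung replicate 2 and cell line replicate 1 as a black tick. Values run from 0.40 for Eomes to 6.73 for Gzmb.

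All 6 antigen receptor genes were higher in lung, and their sum was 120.4, 170.5 and 103 CPM in lung, against 12.3, 11 and 7.22 CPM in the cell line. Cd3g, a signalling chain of CD3, had 22.9, 31.1 and 16.5 CPM in lung, against 0.702, 1.04 and 0.211 CPM in the cell line. The difference was 5.17 on the log2 scale (SE 0.55, adjusted p = 0.000164), the largest of the 6. Cell line replicate 3 held 4 counts of Cd3g, all assigned to a retained-intron transcript. Cd3e, the chain that pairs with both other CD3 chains, had 16.8, 17.4 and 18.1 CPM in lung, against 3.13, 3.37 and 1.84 CPM in the cell line (2.65, SE 0.32, adjusted p = 0.000291), the smallest difference of the 6. Cd3e was the steadiest CD3 gene across lungs, while Cd3d and Cd3g were highest in lung replicate 2. Cd3d had 16.0, 26.7 and 11.8 CPM in lung, against 1.03, 1.67 and 0.685 CPM in the cell line. Cd247, the zeta chain, had 16.4, 14.3 and 13.5 CPM in lung, against 1.07, 1.27 and 0.685 CPM in the cell line. Their log2 fold changes were 4.01 (SE 0.48) for Cd3d and 3.86 (SE 0.35) for Cd247. No cell line sample reached the lowest lung sample in any of the 6.

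The beta chain constant genes were detected in every cell line sample. Trbc2 had 33.5, 49.4 and 29.2 CPM in lung, against 4.84, 2.73 and 2.50 CPM in the cell line (log2 difference 3.47, SE 0.38, adjusted p = 0.000182). Trbc1 had 15.0, 31.5 and 14.2 CPM in lung, against 1.55, 0.956 and 1.29 CPM in the cell line (3.97, SE 0.44, adjusted p = 0.000188). The ratio of Trbc2 to Trbc1 CPM, with mean transcript lengths of 692 and 732 bases, was 2.23, 1.57 and 2.06 in lung and 3.11, 2.86 and 1.94 in the cell line, so the groups overlapped, and the near identity printed above limits what this ratio can show.

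The coreceptors of helper and cytotoxic T cells were all higher in lung, with a sum of 73.8, 52.3 and 59.3 CPM in lung, against 5.69, 6.57 and 3.69 CPM in the cell line. Cd8a, the alpha chain of CD8, had 40.2, 21.1 and 25.3 CPM in lung, against 2.47, 2.19 and 1.3 CPM in the cell line (log2 difference 3.85, SE 0.39, adjusted p = 0.000132). Cd8b1, the beta chain that marks conventional CD8 T cells, had 22.7, 21.3 and 16.7 CPM in lung, against 1.49, 1.73 and 0.843 CPM in the cell line (3.90, SE 0.36, adjusted p = 8.86e-05). Cd4, also made by some macrophages and dendritic cells, had 11, 9.91 and 17.2 CPM in lung, against 1.73, 2.65 and 1.53 CPM in the cell line (2.69, SE 0.38, adjusted p = 0.000672). Cd4 was highest in lung replicate 3 and Cd8a in lung replicate 1. The ratio of the summed CD8 genes to Cd4 in CPM, not corrected for length, was 5.72, 4.28 and 2.44 in lung and 2.30, 1.48 and 1.41 in the cell line. The groups did not overlap in that ratio, but lung replicate 3 lay close to cell line replicate 1. It was not tested.

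The 5 signalling genes summed to 78.8, 89.5 and 82.4 CPM in lung, against 11, 9.61 and 5.44 CPM in the cell line, and all 5 were higher in lung. Lck, the kinase carried by the coreceptors, had 35.1, 35.1 and 35.7 CPM in lung, against 7.06, 4.15 and 2.38 CPM in the cell line (log2 difference 2.96, SE 0.40, adjusted p = 0.000541). The lung samples were almost level, while the cell line samples spanned a wide range. Zap70, the kinase that binds the phosphorylated receptor, had 8.75, 10.9 and 10.8 CPM in lung, against 0.889, 0.864 and 0.421 CPM in the cell line. Lat, the scaffold, had 18.7, 22.6 and 16.9 CPM in lung, against 1.54, 1.5 and 0.738 CPM in the cell line. Their log2 fold changes were 3.79 (SE 0.40) and 3.94 (SE 0.38), the largest of this group. Skap1, an adaptor between receptor and integrin, had 9.43, 16.5 and 11.1 CPM in lung, against 0.933, 2.13 and 0.948 CPM in the cell line. Themis, a regulator of receptor signalling in thymocytes, had 6.79, 4.54 and 7.95 CPM in lung, against 0.561, 0.973 and 0.948 CPM in the cell line. Skap1 differed by 3.21 (SE 0.45, adjusted p = 0.000664) and Themis by 2.95 (SE 0.42, adjusted p = 0.000708).

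The Lck starts printed above are used differently in T cell life, with the proximal start known from thymocytes and the distal start from mature T cells. The transcript from the distal start took 85.5%, 87.2% and 86.3% of Lck counts in lung, against 87.1%, 96.7% and 100% in the cell line. The proximal transcripts took 10.5%, 11.6% and 10% in lung, against 8.65%, 0% and 0% in the cell line. The lung samples were alike, and the cell line shares rest on 151, 72 and 45 Lck counts. The distal transcript was thus the main form in all 6 samples. The list of 6 thymocyte markers was mixed. Rag1, part of the recombinase, had 12, 1 and 2 counts in lung, against 1, 0 and 0 in the cell line, and Ptcra, the pre-receptor alpha chain, had 0, 0 and 0 counts in lung, against 3, 0 and 2 in the cell line. Dntt, the terminal transferase, was higher in lung, with 0.679, 1.19 and 0.935 CPM in lung, against 0.0933, 0.115 and 0 CPM in the cell line. Cd1d1, an antigen-presenting protein also made by other cells, was higher as well, with 13.2, 14.7 and 15.3 CPM in lung, against 1.87, 1.325 and 0.632 CPM in the cell line. Rag1, Ptcra and Arpp21 were below the expression filter and were not tested, and Rag2 was not found among the gene symbols.

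The accessory surface genes were higher in lung in all 3 cases and summed to 41.0, 46.2 and 46.4 CPM in lung, against 4.95, 5.13 and 2.48 CPM in the cell line. Cd2, an adhesion receptor of T and NK cells, had 19.6, 30 and 24 CPM in lung, against 2.75, 2.07 and 1.69 CPM in the cell line (log2 difference 3.49, SE 0.33, adjusted p = 9e-05). Cd5 and Cd6 are related scavenger-type receptors that dampen receptor signalling, and Cd5 is also on some B cells. Cd5 had 10.2, 7.24 and 10.2 CPM in lung, against 0.887, 1.5 and 0.474 CPM in the cell line (3.27, SE 0.47, adjusted p = 0.000712). Cd6 had 11.2, 8.99 and 12.2 CPM in lung, against 1.31, 1.56 and 0.316 CPM in the cell line (3.34, SE 0.54, adjusted p = 0.00132). Both were lowest in lung replicate 2 among lungs and in cell line replicate 3 among cell lines.

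Genes tied to regulatory T cells were also higher in lung, but not equally. Foxp3, the factor that defines these cells, had 2.84, 2.39 and 3.48 CPM in lung, against 0.0467, 0.346 and 0.263 CPM in the cell line (log2 difference 3.73, SE 0.63, adjusted p = 0.00168). The cell line values came from 1, 6 and 5 counts. None of these was assigned to the transcript Foxp3-203, which held 42.9, 20.6 and 67.0 counts in lung. Il2ra, the alpha chain of the interleukin-2 receptor, had 4.20, 2.92 and 6.29 CPM in lung, against 0.327, 0.173 and 0.105 CPM in the cell line (4.41, SE 0.58, adjusted p = 0.000474). Ikzf2, a zinc finger factor also called Helios, had 7.67, 5.05 and 10.3 CPM in lung, against 4.25, 3.69 and 2.69 CPM in the cell line. Its groups did not overlap, but lung replicate 2 lay close to cell line replicate 1. The log2 fold change of Ikzf2 was 1.11 (SE 0.38, adjusted p = 0.0392). That call was lost in 7 of 14 alternative settings, with adjusted p of 0.105 and 0.144 without lung replicates 1 and 3 and of 0.116 and 0.153 without cell line replicates 2 and 3, and it ended near the threshold with limma-voom (0.0513) and with no filter on low counts (0.0565).

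The transcription factors were the role with the largest cell line level relative to lung, with a sum of 67.4 ± 8.44 CPM over the lung samples and 26.2 ± 3.29 over those of the cell line (SD, n = 3 each). Most of the cell line sum was Tcf7. Without Tcf7 the other 4 summed to 24.5% of lung, against 26.3% for the genes of regulatory T cells. Tcf7, the factor TCF-1 of naive and memory T cells, had 34.6, 39.2 and 42.0 CPM in lung, against 15.1, 21.6 and 20.8 CPM in the cell line (log2 difference 1.01, SE 0.25, adjusted p = 0.0102). Per transcript length (TPM, computed from counts over annotated length), it led the 33 genes in cell line replicates 2 and 3, with 16.7 and 16.4 TPM, and followed Trbc2 in replicate 1, with 11.6 against 12.5 TPM. On that scale Tcf7 made up 4.51% ± 0.70 of the summed level of the 33 genes in lung and 24.9% ± 8.35 in the cell line (SD, n = 3 each). Lef1, its close relative, had 9.23, 10.7 and 12.2 CPM in lung, against 2.10, 2.25 and 1.63 CPM in the cell line (2.42, SE 0.32, adjusted p = 0.000409). Bcl11b, which fixes T cell identity, had 8.75, 6.50 and 11.3 CPM in lung, against 2.15, 2.13 and 2.16 CPM in the cell line (2.04, SE 0.34, adjusted p = 0.00141). The cell line samples were nearly level for Bcl11b. Outside lymphocytes, Tcf7 and Lef1 are known as effectors of Wnt signalling in epithelia, and Eomes and Bcl11b have roles in embryo and nervous system.

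The T-box pair split. Tbx21, the factor T-bet of type 1 effector cells, had 5.27, 4.95 and 6.82 CPM in lung, against 0.327, 0.230 and 0.105 CPM in the cell line (log2 difference 4.63, SE 0.50, adjusted p = 0.000174). Eomes, a relative of T-bet found in NK and memory T cells, had 3.20, 2.74 and 4.73 CPM in lung, against 2.80, 2.30 and 2.95 CPM in the cell line. These groups overlapped, since cell line replicates 1 and 3 lay above lung replicate 2. The log2 fold change of Eomes was 0.40 (SE 0.37, adjusted p = 0.4), and it did not pass in any of the 15 settings run, which moved it between 0.15 and 0.63.

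Transcript shares were also computed for Tcf7. The form from the downstream start took 91.5%, 94.4% and 91.6% of Tcf7 counts in lung, against 84.6%, 81.4% and 76.0% in the cell line. The form from the upstream start, 419 bases away by RefSeq and with 45 CpG in its window, took 8.48%, 5.64% and 8.43% in lung, against 15.4%, 18.6% and 24% in the cell line. The groups did not overlap. The counts behind the smaller form were 73.5, 49.9 and 68.2 in lung and 49.8, 69.6 and 94.7 in the cell line, and they overlapped. Whether this exceeds the error of dividing reads between transcripts was not tested.

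Granule genes had the largest median log2 difference of the roles, 5.14, and all 5 were higher in lung. Their sum was 54.4, 75.5 and 76.7 CPM in lung, against 2.99, 2.76 and 1.79 CPM in the cell line. Nkg7, a granule membrane protein needed for cytotoxic release, had 25.1, 36.8 and 26.5 CPM in lung, against 1.12, 1.44 and 0.843 CPM in the cell line (log2 difference 4.70, SE 0.34, adjusted p = 3.72e-05). Gzma, a tryptase, had 12.2, 25.9 and 25.5 CPM in lung, against 0.980, 0.576 and 0.211 CPM in the cell line (5.14, SE 0.58, adjusted p = 0.000214). Gzma was low in lung replicate 1, which had the highest Cd8a and Gzmk. Gzmb, the caspase-activating granzyme, had 6.99, 6.63 and 10.6 CPM in lung, against 0.0467, 0.173 and 0 CPM in the cell line (6.73, SE 0.72, adjusted p = 0.000165). The cell line values of Gzmb came from 1, 3 and 0 counts. Prf1, the pore protein perforin, had 5.80, 5.53 and 12.1 CPM in lung, against 0.840, 0.461 and 0.738 CPM in the cell line (3.50, SE 0.49, adjusted p = 0.00061).

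Gzmk, the granzyme of memory-like CD8 T cells, varied most among lungs, with 4.31, 0.708 and 1.97 CPM in lung, against 0, 0.115 and 0 CPM in the cell line. Cell line replicate 2 held 2 counts and replicates 1 and 3 held none. By counts the lung level was 69.9 times that of the cell line, with a 95% interval of 19.1 to 582 that covers counting error only (fitted log2 fold change 5.83, SE 1.14, adjusted p = 0.00345). The fitted value ran from 5.01 without lung replicate 1 to 8.63 without cell line replicate 2. Fitted values of Gzmb likewise ran from 6.14 without cell line replicate 3 to 7.99 without cell line replicate 2, and those of Gzma from 4.68 without cell line replicate 3 to 5.73 without cell line replicate 1.

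The NK receptors summed to 18.5, 25.8 and 25.9 CPM in lung, against 1.03, 1.21 and 0.843 CPM in the cell line, and all 3 were higher in lung. Klrd1, the CD94 chain that pairs with NKG2 receptors, had 10.3, 13.9 and 11.2 CPM in lung, against 0.420, 0.288 and 0.316 CPM in the cell line (log2 difference 5.07, SE 0.38, adjusted p = 3.65e-05). Klrb1c, the NK1.1 antigen of C57BL/6 mice, had 5.63, 7.99 and 9.52 CPM in lung, against 0.373, 0.518 and 0.263 CPM in the cell line (4.31, SE 0.45, adjusted p = 0.000136). Ncr1, the receptor NKp46, had 2.56, 3.98 and 5.19 CPM in lung, against 0.233, 0.403 and 0.263 CPM in the cell line (3.69, SE 0.50, adjusted p = 0.000545). Klrb1c and Ncr1 were lowest in lung replicate 1 and highest in lung replicate 3. Each was detected in all 3 cell line samples, with 5 to 9 counts a sample.

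Levels can be set against each other per length. In lung, Trbc2 led with 96.5 ± 7.27 TPM, followed by Nkg7 with 61.6 ± 2.13, Trbc1 with 48.3 ± 11.4, Gzma with 43.7 ± 16.3, Cd3g with 40.1 ± 6.85 and Cd2 with 38.8 ± 4.78 TPM (SD, n = 3 each). Trbc2 and Nkg7 were separated from each other beyond their spread, whereas Trbc1, Gzma, Cd3g and Cd2 lay within theirs. In the cell line the order was led by Tcf7 with 14.9 ± 2.84 TPM, Trbc2 with 8.65 ± 3.39 and Lck with 4.17 ± 2.39 TPM, and Trbc2 and Lck lay within their spread. Ikzf2 and Bcl11b, with long transcripts, fell low on this scale, at 1.03 ± 0.35 and 0.604 ± 0.112 TPM in the cell line.

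A further list of 40 genes of T and NK biology was also examined, with 38 found in the table and 37 tested. Of these, 32 were higher in lung, 1 was lower and 4 did not pass, with a median log2 fold change of 3.42. Over all genes tested, 31.3% were higher and 17.5% lower, with a median of 0.08. By TPM the leading genes in lung were Il2rg, the common cytokine receptor chain, at 94.9 ± 27.5 TPM against 5.65 ± 1.73 TPM in the cell line, Thy1, a T cell surface protein also on stroma, at 57.8 ± 5.80 against 2.53 ± 1.0, and Trac, the constant region of the alpha chain, at 50.2 ± 8.83 against 5.88 ± 1.23 TPM (SD, n = 3 each). Gimap3, a lymphocyte GTPase, followed at 38.4 ± 11.2 against 4.25 ± 0.994 TPM, and Ctsw, a protease of cytotoxic cells, at 23.2 ± 6.64 against 1.44 ± 0.359 TPM. Ifng, the type 1 cytokine, had 1.52, 1.99 and 1.76 CPM in lung and no count in any cell line sample, and was at least 33.8-fold higher in lung, taking 3 counts over the cell line group as the floor.

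Of the exceptions, 1 was lower in lung and 4 did not pass in either direction. Klra4, a gene of the Ly49 receptors of NK cells, had 3.04, 6.11 and 4.48 CPM in lung, against 25.2, 43.2 and 43.5 CPM in the cell line (log2 difference -3.04, SE 0.37, adjusted p = 0.000311). Ly49 genes are near copies, so the member that gave these reads is uncertain. Il18rap, a chain of the interleukin-18 receptor, had 31.4, 17.1 and 36.3 CPM in lung, against 17.4, 46.1 and 42.6 CPM in the cell line. Klrc1, an NKG2 partner of Klrd1, had 4.62, 5.38 and 6.37 CPM in lung, against 0.794, 6.21 and 5.70 CPM in the cell line. Both had overlapping groups and a low cell line replicate 1 (adjusted p = 0.563 for Il18rap and 0.658 for Klrc1). Klrd1 itself did not share this, at 0.420, 0.288 and 0.316 CPM in the cell line. Gata3, a factor of T cells and of several epithelia, had 6.87, 3.10 and 7.84 CPM in lung, against 17.4, 8.13 and 7.01 CPM in the cell line (adjusted p = 0.168). Gata3 was highest in cell line replicate 1, and its groups overlapped. Cd40lg, the helper T cell ligand, had 0.639, 0.752 and 1.09 CPM in lung, against 0.187, 0.115 and 0.580 CPM in the cell line (adjusted p = 0.0974).

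What remained in the cell line was not the same share of the lung level for every gene. The cell line mean was under 10% of the lung mean for 22 of the 33 genes, from 10% to 20% for 7 and at 20% or more for 4, with a median of 7.53%. The 4 were Eomes at 75.5%, Tcf7 at 49.6%, Ikzf2 at 46.2% and Bcl11b at 24.3%, and Lef1 followed at 18.6%. Gzmb was lowest at 0.905%. By role, granule genes summed to 3.65% of lung, NK receptors to 4.39%, antigen receptor genes to 7.76%, coreceptors to 8.6% and accessory genes to 9.39%. Signalling genes summed to 10.4%, genes of regulatory T cells to 26.3% and transcription factors to 38.9%. All 33 genes together summed to 12.5%. The 27 genes left after removing the transcription factors and Ikzf2, once the values were known, summed to 7.68%.

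Markers of other blood cells were present in the cell line too. All 10 B cell markers were higher in lung, as were 31.3% of all genes tested. The 10 summed to 217, 417 and 278 CPM in lung, against 119, 113 and 65.1 CPM in the cell line, or 32.7% of lung. The range over the 10 was 25.2% to 48.6%. The 27 T and NK genes just named, chosen once the values were known, ran from 0.905% to 15.9%. Of the removed genes, Ikzf2 at 46.2% lay inside the B cell range, and Tcf7 at 49.6% and Eomes at 75.5% lay above it. Bcl11b at 24.3%, Lef1 at 18.6% and Tbx21 at 3.89% lay below it. The 33 genes as a whole were thus not separate from the B cell markers. The ratio of summed T cell markers to summed B cell markers was 0.883, 0.615 and 0.660 in lung and 0.204, 0.187 and 0.218 in the cell line, without overlap. Of macrophage and monocyte markers, 8 of 9 were higher in lung, and these 8 summed to 6742, 9136 and 7215 CPM in lung, against 103, 94.0 and 58.6 CPM in the cell line. The exception was Mrc1, a mannose receptor, with 119, 47.4 and 127 CPM in lung, against 31.3, 163 and 173 CPM in the cell line (adjusted p = 0.693). Neutrophil markers summed to 162, 315 and 194 CPM in lung, against 3.64, 3.40 and 2.32 CPM in the cell line. Plasma cell, endothelial and red cell markers that were tested were all higher in lung as well, at 37.0%, 0.769% and 1.96% of lung in sum. Of 4 mast cell and basophil markers tested, the mast cell genes Cpa3, Mcpt4 and Cma1 were higher in lung (log2 fold changes of 4.94, 4.36 and 5.27), each on 4 or fewer counts over the cell line samples. Mcpt8, a basophil protease, was lower in lung, with 0.4, 1.33 and 0.519 CPM in lung, against 3.59, 14.9 and 14.2 CPM in the cell line. The part of such cells in the T and NK values was not tested.

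**Figure D3:**
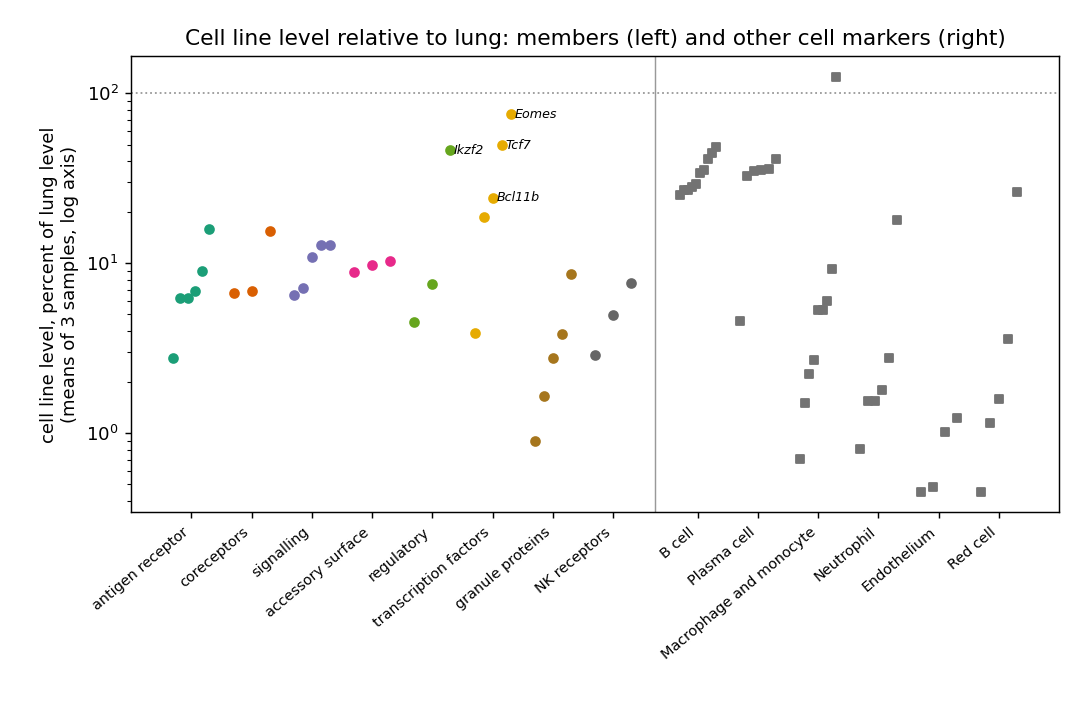
Mean cell line level as a percent of mean lung level (log axis) for each of the 33 genes by role (left) and for markers of other blood and vessel cells (right), 1 point per gene. Eomes, Tcf7, Ikzf2 and Bcl11b lie at 20% or more, beside B cell markers at 25.2% to 48.6%.

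Cell line replicates 2 and 3, the most alike pair of replicates, still differed in these genes. Of the 29 T and NK genes with 10 or more counts in the pair, 24 (82.8%) were lower in replicate 3, against 49.2% of all genes with such counts. The 95% interval of the ratio of replicate 3 to replicate 2 lay below 1 for 10 of the 29 (34.5%), against 7.96% of all genes. It lay above 1 for none of the 33, and the share of all genes above 1 was not computed. The intervals cover counting error, and the comparison is of single libraries. Cd3g had a ratio of 0.203 (0.05 to 0.617), Cd6 of 0.203 (0.0686 to 0.503), Cd5 of 0.317 (0.131 to 0.697) and Lck of 0.572 (0.385 to 0.841). The summed level of all 33 genes had a ratio of 0.755 (0.694 to 0.822). That of the 27 genes without transcription factors and Ikzf2, chosen once the values were known, was 0.593 (0.522 to 0.672). The 10 B cell markers had 0.573 (0.534 to 0.616). Genes with a ratio near or above 1 were found in several roles. They were Tcf7 at 0.964 (0.834 to 1.11), Bcl11b at 1.01 (0.634 to 1.63), Eomes at 1.28 (0.838 to 1.97), Trbc1 at 1.35 (0.698 to 2.65), Trbc2 at 0.915 (0.597 to 1.401), Themis at 0.969 (0.471 to 2), Prf1 at 1.60 (0.627 to 4.40) and Klrd1 at 1.10 (0.279 to 4.55). The 5 transcription factors summed to a ratio of 0.970 (0.856 to 1.10), most of it Tcf7, and to 0.991 (0.767 to 1.28) without Tcf7. Of the factors, Lef1 at 0.727 (0.439 to 1.2) and Tbx21 at 0.457 (0.0414 to 3.19) were lower, with intervals that held 1, as did that of Ikzf2 at 0.729 (0.494 to 1.07). Marker sums of other cells were lower in replicate 3 too, at 0.617 for red cells, 0.642 for endothelium and 0.652 for plasma cells. Neutrophil markers had 0.682 (0.451 to 1.03), and macrophage and monocyte markers 0.900, or 0.624 without Mrc1. Plasmacytoid dendritic cell markers had 0.983 and mast cell and basophil markers 0.939, with intervals that held 1. Epithelial markers, mostly keratins, had a ratio of 1.01 (1 to 1.02). Klra4 had nearly the same level in both replicates, 43.2 and 43.5 CPM. Cell line replicate 1 was below replicate 2 for 18 of the 33 genes. The share over all genes was not computed for that pair, so the count cannot be set against it. The part of any other cell type in these ratios was not tested.

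**Figure D4:**
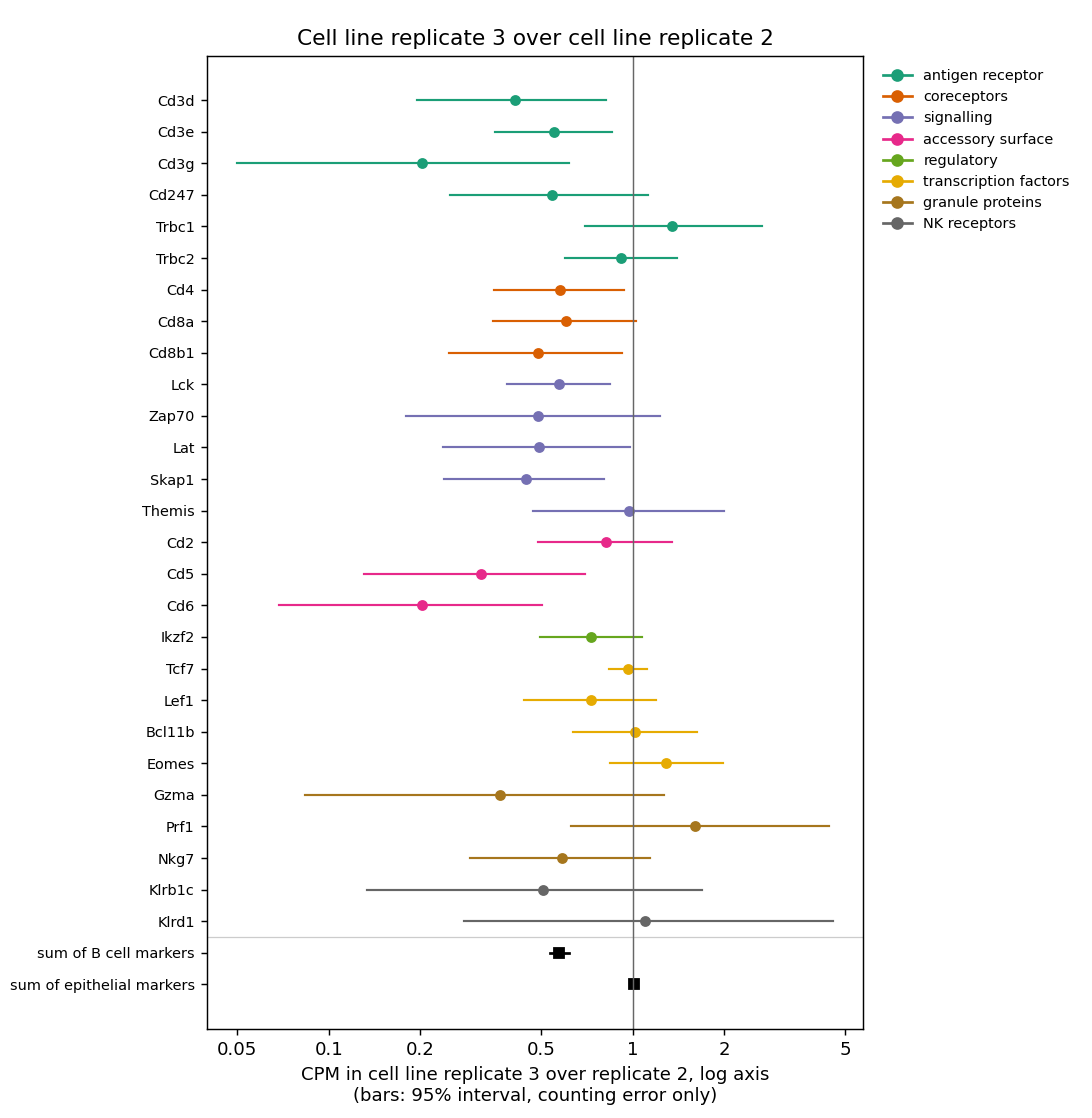
Ratio of CPM in cell line replicate 3 to replicate 2 (log axis) with 95% intervals for counting error, for the 27 genes with 20 or more cell line counts and for 2 summed marker lists. These are not the 27 genes summed in the text, since Tcf7, Lef1, Bcl11b, Eomes and Ikzf2 are among them. Most receptor, coreceptor and signalling genes lie left of 1 near the B cell sum at 0.573, and Tcf7, Bcl11b, Trbc2 and Themis lie near 1 with the epithelial sum.

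Variable segments of the receptor were counted apart from the 33 genes, and near copies among them share reads. Of 102 variable segment genes of the T cell receptor in the table, 70, 70 and 69 had at least 1 count in lung, against 29, 26 and 13 in the cell line. They summed to 23, 25.9 and 20 CPM in lung, against 2.03, 2.37 and 0.908 CPM in the cell line, on library sizes without TMM factors. The families differed: the 4 delta segments had 7, 4 and 4 counts in lung, against 4, 10 and 5 in the cell line, and did not show the lung excess of the total. Among 21 beta chain segments, 20, 19 and 20 were seen in lung and 13, 10 and 5 in the cell line. A single segment was seen in all 3 cell line samples, and 17 were seen in at least 1, of which 16 were also seen in lung. The beta segments in the cell line rested on 23.1, 18 and 7 estimated counts, so absence of a segment there was not informative at this depth. Replicate 3 was the lowest of the cell line samples for the beta segments.

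Within these 33 genes, lung replicate 2 moved with transcript length. For each of the 33 genes its CPM was set over the mean of lung replicates 1 and 3, and this log2 ratio fell with transcript length at a Spearman rho of -0.73 over 33 genes, which share their libraries. Its median was 0.46 for the 11 shortest, up to 1436 bases, and -0.53 for the 11 longest, from 2488 bases. Trbc1 at 1.11 and Cd3d at 0.94 were the highest, and Gzmk at -2.15 was the lowest against this trend. The trend was not computed over all genes. Among long marker transcripts, Pax5 and Cr2 of B cells went against it, at 0.59 and 0.85. Vwf of endothelium and Mrc1 went with it, at -2.14 and -1.37. Differences among lungs in the values above, such as high Trbc1 and low Ikzf2 in replicate 2, move with length in this way, and the part of length in them was not tested. Of the 32 genes higher in lung, 32 were also higher without lung replicate 2.

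**Figure D5:**
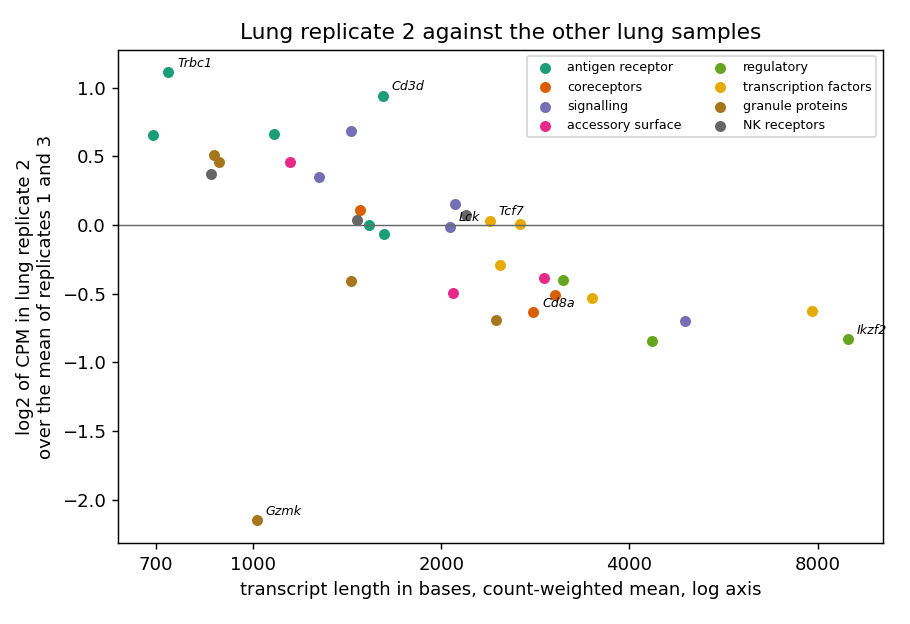
Log2 ratio of CPM in lung replicate 2 to the mean of lung replicates 1 and 3 against transcript length (log axis), 1 point per gene, coloured by role. Most short transcripts lie above 0 and most long ones below, with Gzmk at -2.15.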

How the data were processed

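RNA was sequenced from 3 lung and 3 cell line samples. The authors deposited estimated counts per transcript, 1 column per sample. The submitters' processing notes list Salmon 1.4.0, FastQC 0.11.9, DESeq2 1.32.0 and the build GRCm39. What each did, the annotation release and any filter are not given in the sources used. The labels' protocols name both an RNA amplification before hybridization and a stranded mRNA library kit, and do not say whether the sequenced libraries were amplified that way. Of 76776 transcripts, 76521 (99.67%) matched GENCODE M21, an annotation of GRCm38 used for names, lengths and starts, and were summed by symbol. The other 255 held 0.107% to 0.416% of counts and stayed out of tests. No sample column was left unmapped.

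Counts were rounded and tested in R 4.3.3 with edgeR 4.0.16 and its quasi-likelihood F test (TMM scaling, expression filter by group, robust dispersions, group as the only term), with Benjamini-Hochberg adjustment over 15212 genes and a threshold of 0.05. SE is the log2 fold change over the root of F. CPM uses scaled library sizes. TPM was computed from counts and annotated lengths, since effective lengths were not given. Intervals of 95% are exact binomial and, like the floor of 3 counts, cover counting error only. Alternatives used limma 3.58.1 and DESeq2 1.42.0 as well, other scalings and filters, a replicate block, and samples left out. The test was tried on simulated data. The members, roles and lists were chosen with earlier results of these data known. All members were named, with other pathway genes chosen by lung TPM or by missing or opposing the call, and not every marker under that rule is reported.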

Additional observations from a re-analysis of the deposited data

How the results depend on the processing

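Of 448 comparisons of a T or NK gene's fold change with an alternative, 441 kept direction and side of the threshold, 7 lost significance (all Ikzf2) and 0 reversed. Genes higher in lung numbered 31 to 32 of the 33 in every setting except a filter of 10 or more counts in all 6 samples, which left 19 of them and called 18. That filter called 2555 of all genes higher and 1701 lower in lung, and 18 of the further list higher. Library size alone called 1728 of all genes lower, against 2664 with TMM, and raised the median log2 fold change by 0.23. Without cell line replicate 1 and lung replicate 2 together, 5425 of all genes were lower and 2 of the further list. Leaving out 1 sample at a time gave 4249 to 5190 genes higher and 1820 to 3773 lower over all genes, and 31 to 32 T and NK genes higher. No T or NK gene was lower in any setting.

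Replicate numbers did not pair the samples, with correlations of deviations of -0.0422, 0.0822 and -0.0834. With the replicate block, 4634 genes were higher and 2526 lower, and 31 T and NK genes were higher (Ikzf2 at adjusted p = 0.0707). Tcf7's share of the summed cell line level was given per length. Low cell line counts limit Gzmb, Gzmk, Foxp3, Il2ra and Tbx21, for which 3 counts or fewer were found in a sample.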
